A study of Mus musculus with 6 samples.

Results

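The common gamma chain cytokine receptors of natural killer (NK) cells were examined in mRNA-seq of spleen, as 8 genes taken by symbol out of the 14490 genes listed. They are Il2rg, which encodes the common gamma chain itself, the partner chains Il2rb, Il2ra, Il15ra, Il21r, Il4ra and Il7r, and the ligand Il15. The rule itself used no measured value, but the 8 genes were chosen with earlier results of these data known. All 8 genes were listed and passed the filter on low values (a normalized count of at least 1 in at least 3 samples). WT samples came from Mettl3fl/fl mice and cKO samples from Ncr1Cre-Mettl3fl/fl mice, 3 samples per genotype, of strain C57BL/6 and, per the methods, 6 to 10 weeks old. Both groups carry the floxed Mettl3 alleles, and only cKO carries Cre. Cre is driven from the Ncr1 locus, which is active in NKp46+ cells, and the methods give the mice as heterozygous for it, so an effect of the Cre allele and an effect of the loss of Mettl3 cannot be told apart. NK cells were purified by flow cytometric sorting without further treatment stated for this assay. The labels do not say whether the samples of a genotype came from separate mice or pools, so p-values measure the spread between these samples, which may be technical.

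Cytokines of this family (IL-2, IL-4, IL-7, IL-9, IL-15 and IL-21) signal through a shared subunit, CD132, which binds the kinase JAK3, together with a private or partly shared chain that mostly binds JAK1. The receptors then phosphorylate STAT transcription factors, mainly STAT5 for IL-2, IL-7 and IL-15, STAT6 for IL-4 and STAT3 for IL-21. In NK cells CD122, the product of Il2rb, pairs with CD132 to receive IL-15, which neighbouring cells present on the IL-15 receptor alpha chain, and this signal is needed for NK cell survival. METTL3 is the catalytic subunit of the complex that writes N6-methyladenosine (m6A) into mRNA.

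Between 55965515 and 71464042 reads fell on the listed genes of a sample, and the 3 samples of each genotype differed from one another by more than counting noise. Values are counts divided by the sample's size factor (normalized counts), and limma was used to compare the genotypes on log2(normalized count + 1), two-sided. Adjustment for the 14490 genes followed Benjamini and Hochberg, a gene being called at an adjusted p under 0.05. Percent changes are the fitted log2 changes on that scale, turned into percent. Mettl3, the deleted gene, had 1303, 1258 and 1192 normalized counts in WT and 297, 299 and 405 in cKO. All 9 NK markers were found, among them Ncr1 with at least 16678 normalized counts in every sample. The 6 B-cell markers summed to 1152 to 1189 normalized counts in WT samples and 1496 to 1629.6 in cKO samples. The 6 T-cell markers summed to 1794 to 1987 in WT and 1395 to 1619 in cKO. Among these Cd3g alone was called, with means of 802 in WT and 478 in cKO, and Cd8a went the other way. Some genes on the lists for other cells were abundant, among them Itgax (dendritic cells) with 40069 to 43769.9 and Gata3 (innate lymphoid cells) with 3944 to 4258 over all samples, and all lists are given further on.

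The shared chain Il2rg, 3 of its 6 partner chains (Il2ra, Il21r and Il4ra) and the ligand Il15 fell in cKO, while Il2rb and Il7r rose and Il15ra was not called. Of the 8 genes 7 were called, 2 higher and 5 lower in cKO. Among all genes, not matched to these 8 for level, 36.6% were called, 17.8% higher and 18.8% lower. The values of the genotypes did not overlap for 7 of the 8 genes, against 45.7% of all genes. Their median log2 fold change was −0.30 and their median size of change 0.42, where all genes had a median of 0.0014 and a median size of 0.17. The 95% confidence interval did not reach −1 or 1 on the log2 scale for 7 of the 8 genes, Il2ra being the exception. In a bulk sample, fewer cells that express a gene and less RNA per cell cannot be told apart.

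**Figure D1:**
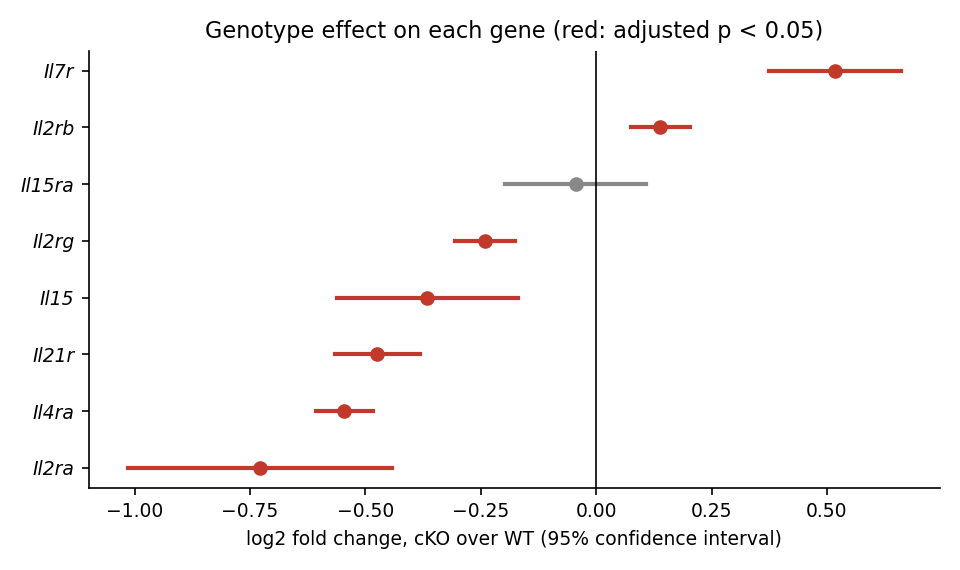
Log2 fold change of each gene (cKO over WT, points) with its 95% confidence interval from limma (lines), in red where the adjusted p was under 0.05. Il7r (0.52) and Il2rb (0.14) lie right of zero, the interval of Il15ra crosses zero, and 5 genes lie left of it, down to Il2ra at −0.73.

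Since Mettl3 is the gene deleted, the messages were searched for GGACT, a common form of the sequence around methylated adenosines (the A is the base that can be methylated). The search covered the longest protein-coding transcript of each gene (GENCODE M21, GRCm38), on the sense strand. Il4ra held 9 copies, Il2rb 7, Il21r 5, Il2ra 4, Il15 and Il7r 2 each, and Il2rg and Il15ra 0. The median of 11815 transcripts was 3 copies, 92.2% held at least 1, and 40.5% of those with an annotated stop codon held 1 within 200 bases of it, as did Il2rb and Il2ra among the 8 genes. Per kb of transcript, Il21r (2.001), Il4ra (1.71) and Il2rb (1.67) lay above the median of 1.05, and Il7r (0.565) and Il2ra (0.907) lay below it. Whether the number of copies goes with the change in level was not tested. Other forms of the sequence were not searched, so a gene with 0 copies may still hold another form. A match is a stretch of letters only, and methylation was not measured in these libraries. For each gene with a copy, the one nearest to the stop codon is printed here within 21 bases of transcript. It is read 5′ to 3′ with the motif in capitals. These are the places in the receptor messages where GGACT stands closest to the stop codon.
Il2rb (3′ UTR, 13 bases after the stop codon, chr15:78481453-78481473, minus strand): ggtggccaGGACTgggatcca
Il2ra (3′ UTR, 164 bases after, chr2:11689936-11689956, plus strand): actaaactGGACTttgccatt
Il21r (coding, 223 bases before, chr7:125632758-125632778, plus strand): aaggaaggGGACTggacagca
Il7r (coding, 466 bases before, chr15:9508311-9508331, minus strand): agtttcctGGACTgccagatt
Il4ra (coding, 477 bases before, chr7:125576567-125576587, plus strand): ttactttcGGACTagacacgg
Il15 (5′ UTR, 794 bases before, chr8:82402376-82402396, minus strand): ccagggcaGGACTgcccccgc

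Il2rg, which encodes the shared chain of the family, fell in cKO. It lies on the minus strand of the X chromosome (GRCm38, 101264378 to 101268255). WT samples 1, 2 and 3 had 18669, 18345 and 19453 normalized counts and cKO samples 15978, 16065 and 15721. Every cKO sample lay below every WT sample, and the cKO samples lay close together. Mean levels were 18822 ± 569 and 15921 ± 179 (SD, n = 3 each), so that Il2rg fell by 15.4%. The log2 change of −0.24 had a 95% confidence interval from −0.31 to −0.18 and an adjusted p (limma) of 8.47e-07. Of its 2387 exon bases, 728 (30.5%) are also annotated to Gm20489, a gene on the same strand, and how reads in the shared stretch were assigned is not given in the sources used here. Gm614, which lies 385 bases away on the same strand, fell as well (log2 fold change −0.33, limma adjusted p = 0.000234), and Med12, 5774 bases away on the other side, showed a log2 change of 0.048 (adjusted p = 0.357, limma).

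Il2rb, which encodes CD122, the signalling chain shared by the IL-2 and IL-15 receptors, rose by 10.1%. It lies on chromosome 15 from 78479256 to 78495271, on the minus strand. WT samples had 176352, 165643 and 169117 normalized counts, and cKO samples had 183831, 190774 and 188177. Even the lowest cKO sample lay above the highest WT sample, by less than the range within WT. Means were 170370.5 ± 5463 (SD, n = 3) and 187594 ± 3508 (SD, n = 3), which gave a log2 change of 0.14 (95% confidence interval 0.075 to 0.20, limma adjusted p = 0.000797). With 99.8% of all listed genes at a lower mean, Il2rb was the most abundant of the 8 genes, and the standard error of its log2 change was 0.0311. Its neighbours on the chromosome were also higher in cKO. C1qtnf6, 28074 bases away, showed a log2 change of 0.45 (adjusted p = 8.63e-07, limma), and Tmprss6, 10621 bases away, had 0.28 (limma adjusted p = 0.0334).

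The 2 alpha chains that raise the affinity of these receptors, Il2ra and Il15ra, are neighbours on the plus strand of chromosome 2, 12096 bases apart. Il2ra (11642807 to 11693193), which encodes CD25, had 416, 287 and 423 normalized counts in WT and 202, 233 and 234 in cKO. The groups did not overlap, and WT sample 2 stood closer to cKO than to the other WT samples. Means were 375 ± 76.6 (SD, n = 3) and 223 ± 17.9 (SD, n = 3). Il2ra fell by 39.7%, more than any other of the 8 genes. Its log2 change of −0.73 also had the widest confidence interval, from −1.02 to −0.44, and the limma adjusted p was 0.000151. Without WT sample 2 the log2 fold change was −0.91.

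Il15ra (11705290 to 11734317), which encodes the chain that binds and presents IL-15, had 756, 834 and 758 normalized counts in WT and 761, 753 and 761 in cKO. The groups overlapped, and the highest value was that of WT sample 2. Means were 783 ± 44.5 (SD, n = 3) and 758 ± 4.24 (SD, n = 3), with a log2 change of −0.044 (95% confidence interval −0.20 to 0.11, limma adjusted p = 0.688; exact permutation test, two-sided, p = 0.7). The interval allows changes between −12.8% and 7.82%, so a change of the size seen in Il2ra lay outside it. The sign of this value turned without WT sample 2 and with samples scaled to equal totals. The next gene on that side, Fbh1 (listed as Fbxo18), 8255 bases from Il15ra, showed a log2 change of 0.049 (adjusted p = 0.419, limma).

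Il15, the ligand, fell by 22.4%. It was the 1 listed gene among the 6 gamma chain cytokines, and Il2, Il4, Il7, Il9 and Il21 were not analysed here. It lies on chromosome 8 from 82331632 to 82403222, on the minus strand, and had 523, 541 and 547 normalized counts in WT and 416, 454 and 382 in cKO. The highest cKO sample lay below the lowest WT sample, and the spread was larger in cKO (36.1) than in WT (12.2). Mean levels were 537 and 417 normalized counts (n = 3 each), which gave a log2 change of −0.37 (95% confidence interval −0.56 to −0.17). The limma adjusted p of 0.0034 was the highest among the 7 called genes. The genes on either side, Inpp4b (log2 fold change −0.31, limma adjusted p = 0.0829) and Zfp330 (−0.043, limma adjusted p = 0.514), lie 203717 and 360384 bases away.

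Il4ra and Il21r, the private chains for IL-4 (shared with IL-13) and for IL-21, lie 23954 bases apart on the plus strand of chromosome 7 and both fell. Il4ra (125552120 to 125579474) had 29061, 28827 and 27859 normalized counts in WT and 19562, 19389.6 and 19774 in cKO. The genotypes were far apart relative to their spread, with means of 28582 ± 637 (SD, n = 3) and 19575 ± 192 (SD, n = 3), and Il4ra fell by 31.5%. Its limma adjusted p of 8.75e-14 was the lowest among the 8 genes, and its log2 change was −0.55 (95% confidence interval −0.61 to −0.48). Of its 6002 exon bases, 571 (9.51%) are also annotated to an antisense gene, Gm44876, and whether reads were counted by strand is not stated.

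Il21r (125603429 to 125633570) had 3845, 4158 and 4237 normalized counts in WT and 3009, 2859 and 2939 in cKO. No cKO sample reached the lowest WT sample. With means of 4080.1 ± 207 and 2935 ± 74.9 (SD, n = 3 each), Il21r fell by 28.0%, a log2 change of −0.47 (95% confidence interval −0.57 to −0.38, limma adjusted p = 3.12e-09). On the Il4ra side the next gene, Nsmce1, 60523 bases away and on the other strand, also fell (log2 fold change −0.50, limma adjusted p = 2.35e-07). On the Il21r side, Gtf3c1, 7383 bases away, showed a log2 change of 0.0032 (adjusted p = 0.964, limma). The confidence intervals of Il4ra and Il21r overlapped each other, and whether the 2 falls differed was not tested.

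Il7r, which encodes CD127, the chain for IL-7, rose by 43.1%, the largest rise among the 8 genes. It lies on chromosome 15 from 9505788 to 9530176, on the minus strand, and had 706, 690.0 and 734 normalized counts in WT and 1035, 1011 and 1003 in cKO. The cKO samples all lay well above the WT samples, and both groups were tight. Means were 710.0 ± 22.2 (SD, n = 3) and 1016 ± 16.7 (SD, n = 3), a log2 change of 0.52 (95% confidence interval 0.37 to 0.66, limma adjusted p = 1.37e-06). The nearest listed neighbour, Spef2, 48016 bases away, went the other way at a low level (mean 44.2 normalized counts, log2 fold change −0.81, limma adjusted p = 0.0342). CD127 is known as a marker of immature NK cells and of other innate lymphoid cells, and markers of both are given further on.

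Il7r was also the only one among the 6 of these genes with a window in the RefSeq promoter table (GRCm38.p6) to hold the STAT-type motif TTCNNNGAA in the 250 bases before its start site. The motif reads the same on both strands, so a single search covers both. It was searched because STAT5 acts downstream of these receptors, and Il2rb and Il15 had no window. Of 32851 windows of this length 7.02% held it. The match begins 142 bases before the RefSeq start site. The whole window lies within the Il7r gene as annotated in GENCODE M21 (9505788 to 9530176), where a noncoding Il7r transcript overlaps it. The window of Il7r is printed on its coding strand (chr15:9529877-9530126, minus strand) with the match in capitals, as the one receptor promoter where these letters were found. A match is no evidence of binding.
Il7r: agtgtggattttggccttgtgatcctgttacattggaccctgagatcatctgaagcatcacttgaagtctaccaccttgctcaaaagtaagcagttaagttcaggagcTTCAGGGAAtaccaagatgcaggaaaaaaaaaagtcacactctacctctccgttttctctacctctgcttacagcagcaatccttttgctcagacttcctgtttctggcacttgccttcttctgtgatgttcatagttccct

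**Figure D2:**
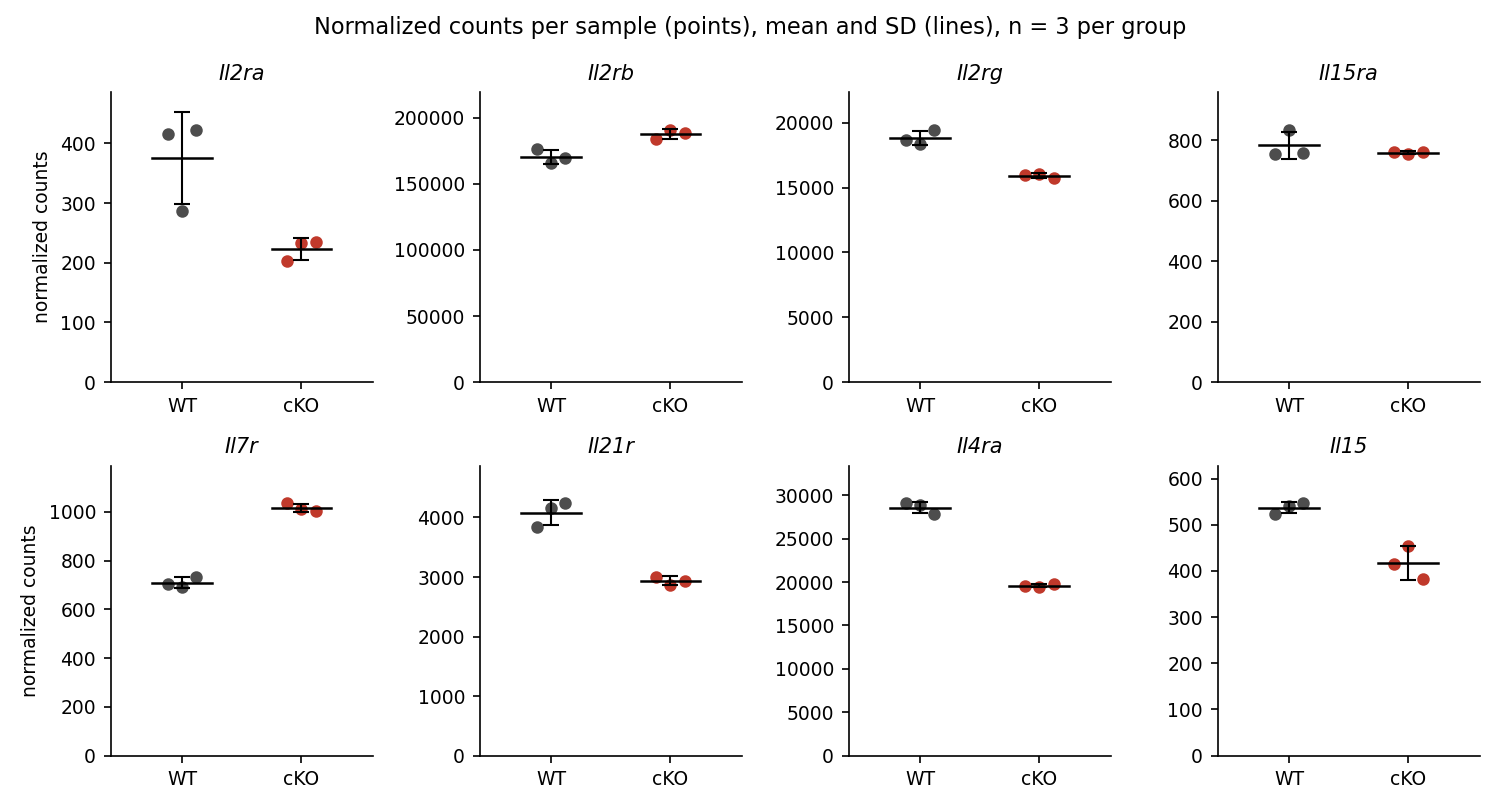
Normalized counts of the 8 genes in each sample (points, WT in grey and cKO in red, each panel on its own linear axis from zero), with the mean and SD of 3 samples per genotype as lines. The 2 groups are apart in every panel except Il15ra, where WT runs from 756 to 834 and cKO from 753 to 761.

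By the exact permutation test each of the 7 separated genes had p = 0.1, two-sided, the smallest that 3 samples against 3 allow.

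Levels of different genes were compared per kb of exon (union of annotated exons). In WT samples Il2rb came first with 39741 ± 1274 normalized counts per kb (SD, n = 3), 5.04 times the next gene, Il2rg, with 7885 ± 239. Il4ra followed with 4762 ± 106 and Il21r with 1227 ± 62.4. The other genes lay far below, Il15 at 238 ± 5.38, Il15ra at 176 (170.0 to 188), Il7r at 152 ± 4.76 and Il2ra at 65.7 ± 13.4 normalized counts per kb. No 2 neighbours in this order had overlapping ranges in WT. In cKO the first 4 genes kept their places, with Il2rb at 43759 ± 818 and Il2rg at 6669.9 ± 74.9 normalized counts per kb, so that Il2rb stood at 6.56 times Il2rg. Il7r moved from rank 7 to rank 5 with 218 ± 3.58, ahead of Il15 (185 ± 16.0) and Il15ra (171 ± 0.954), whose ranges overlapped. Il2ra remained last with 39.1 ± 3.14. If all Il2rg reads came from the bases it does not share with Gm20489, it would stand at 11346 normalized counts per kb in WT and 9597 in cKO, and the order would be the same.

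**Figure D3:**
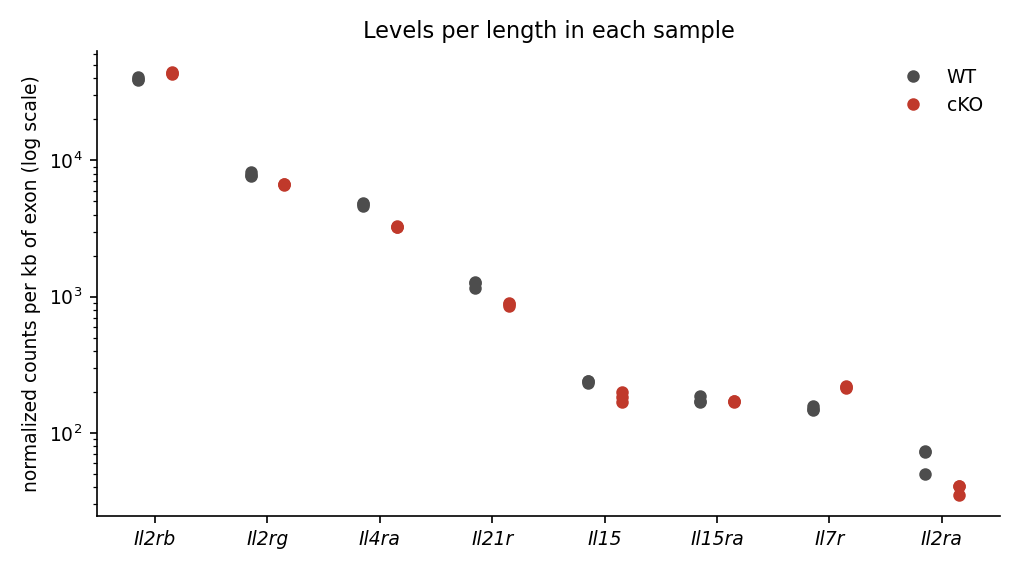
Normalized counts per kb of exon on a log axis for each gene in each sample (WT grey, cKO red), in the order of the WT means. Il2rb lies 5.04 times above Il2rg in WT, and Il7r moves ahead of Il15 and Il15ra, from 152 in WT to 218 in cKO.

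The balance between the chains of a receptor was taken within each sample, where the scaling between samples drops out. Il2rb had 9.45, 9.03 and 8.69 normalized counts for each of Il2rg in WT samples and 11.5, 11.9 and 12.0 in cKO. The ratio was thus higher in all cKO samples, with means of 9.06 ± 0.377 and 11.8 ± 0.246 (SD, n = 3), a 1.30-fold difference. Set against Il2rg, Il7r was 1.69-fold higher in cKO, from a ratio of 0.0378 in WT to 0.0639. Il4ra and Il21r fell by more than the shared chain did. Il4ra had 1.52 ± 0.0765 normalized counts for each of Il2rg in WT and 1.23 ± 0.0258 in cKO, and the ratio of Il21r to Il2rg in cKO was 0.851 times that in WT. Set against Il2rb, Il2ra in cKO stood at 0.548 and Il15ra at 0.881 times their WT ratio. All 6 ratios separated the genotypes without overlap (exact permutation test, two-sided, p = 0.1 each, the smallest possible, and 0.1 after adjustment over the 6 ratios). Il2rb to Il2rg, Il7r to Il2rg and Il2ra to Il2rb had to separate, because their single genes moved in opposite directions without overlap. How often other pairs of genes separate was not computed.

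**Figure D4:**
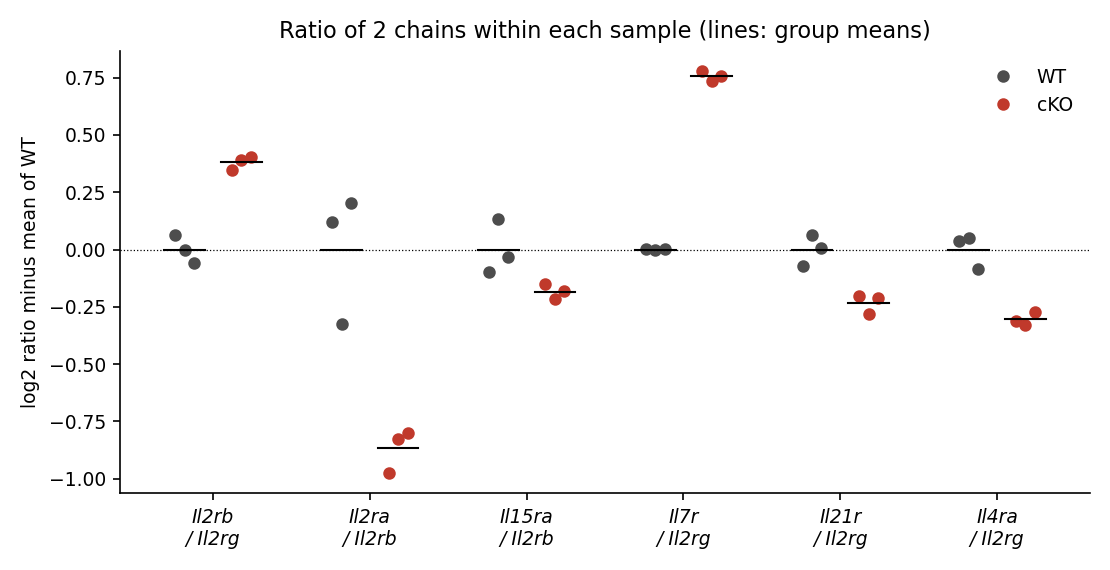
Log2 ratio of the normalized counts of 2 chains within each sample, minus the WT mean (points, WT grey and cKO red, lines are group means). Il2rb and Il7r rise against Il2rg by 0.38 and 0.76, and the other 4 ratios fall, that of Il2ra to Il2rb to −0.87.

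Among the 4 chains that pair directly with the shared chain, Il2rb made up 86.6 ± 0.415% of the summed level per kb in WT and 90.9 ± 0.229% in cKO (SD, n = 3). Il4ra went from 10.4 ± 0.286% to 6.78 ± 0.143% and Il21r from 2.68 ± 0.201% to 1.84 ± 0.0765%. The share of Il7r went from 0.332 ± 0.0129% to 0.453 ± 0.0144%. The genotypes did not overlap for any of these 4 shares (exact permutation test, two-sided, p = 0.1 each). The shares of Il2rb, Il4ra and Il21r had to separate. Il2rb, most of the sum, rose without overlap, while Il4ra and Il21r fell without overlap. The shares of a sample add up to the whole, so they do not move independently.

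The other genes of the pathway were described by role, 56 genes in all lists, of which 49 were listed. Of these 30 were called, 20 higher and 10 lower in cKO, against the 36.6% of all genes, and their median log2 fold change was 0.053. With samples scaled to equal totals, which moves the median of all genes from 0.0014 to 0.051, 36 were called. The 36.6% was not matched for level, and most pathway genes had means above the median of all genes (880 normalized counts). Log2 changes of abundant genes had smaller standard errors (median 0.032) than those of genes at lower levels (0.099), so abundant genes are called more easily. Whether pathway genes were called more often than other genes of their level was not tested, here or by role below.

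Partner chains beyond the 8 genes were few. Crlf2, the receptor chain for TSLP, a cytokine that signals with CD127, had 6741, 7152 and 7209.9 normalized counts in WT and 5939.7, 5920.4 and 5819.7 in cKO. It fell without overlap between the genotypes, by a log2 change of −0.25 (adjusted p = 3.88e-06, limma), opposite to Il7r. Il13ra1, the other partner of Il4ra, had a mean of 34.0 normalized counts and was not called (log2 fold change 0.60, limma adjusted p = 0.166). Il9r was not analysed here.

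Of the 7 kinases and STAT factors 3 were called, 1 higher and 2 lower, with a list median of −0.045. Jak1, the kinase on the partner chains, rose from 95882 ± 2379.6 to 104537 ± 1200.1 normalized counts (SD, n = 3), whereas Jak3, the kinase on the shared chain, was not called (log2 fold change −0.068, limma adjusted p = 0.0879). Stat3, the factor used by IL-21, had 36064, 33176 and 36647 normalized counts in WT and 27614, 26584 and 28433 in cKO. It fell in every cKO sample, as Il21r did, and Stat5a was also lower. Stat6, the factor used by IL-4, had 18140 to 19357 normalized counts in WT and 18352 to 18773 in cKO, overlapping ranges, and Stat5b was not called either. The signs of Stat6 and Stat5b turned with equal totals.

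Of the 12 listed adaptors and PI3K subunits 6 were called, 4 higher and 2 lower, and with equal totals 7 were higher and 1 lower. Irs2, an adaptor of the IL-4 receptor, had 10990.1, 10689 and 10892 normalized counts in WT and 14664, 14840.5 and 15279 in cKO. It rose in every cKO sample (log2 fold change 0.46, limma adjusted p = 1.06e-11), while Il4ra itself fell. Pik3cd, a catalytic subunit of PI3K, also rose (log2 fold change 0.37, limma adjusted p = 8.71e-11). Gab2, a scaffold that recruits PI3K and SHP-2, was the largest fall, from 2285 ± 52.8 to 1536 ± 36.3 normalized counts (SD, n = 3; log2 fold change −0.57, limma adjusted p = 1.00e-09). Ptpn11, which encodes SHP-2, was called lower (log2 fold change −0.12, limma adjusted p = 0.0122), but not with equal totals (−0.069, adjusted p = 0.145), without WT sample 1 (adjusted p = 0.0769) or without cKO sample 1 (adjusted p = 0.0779).

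Among the pathway lists, feedback inhibitors had the highest median, 0.26, and 6 of 8 were called, 4 higher and 2 lower. Socs2, which restrains STAT5 signalling, had 599.8, 646 and 621 normalized counts in WT and 972, 1024 and 887 in cKO. It rose without overlap, by a log2 change of 0.62 (adjusted p = 3.14e-07, limma). Socs1 and Socs3 rose too, and so did Asb2 (log2 fold change 0.39, limma adjusted p = 0.000466), a ubiquitin ligase subunit whose transcript responds to gamma chain cytokines. Cish, another STAT5-induced inhibitor, had 657 to 783 normalized counts in WT and 797 to 861 in cKO. It was not called (limma adjusted p = 0.0705) but was called with equal totals (limma adjusted p = 0.0229). The tyrosine phosphatases Ptpn2 (log2 fold change −0.31, limma adjusted p = 1.78e-07) and Ptpn1 (−0.13, limma adjusted p = 0.00123) fell.

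Of 12 target genes of STAT5 and of IL-2 or IL-15, 9 were called, 6 higher and 3 lower, with a median of 0.082. Osm, a STAT5-induced cytokine, led the list with a log2 change of 0.54 (limma adjusted p = 3.31e-11), and the survival gene Bcl2 followed with 0.50. The proliferation gene Ccnd2 and the survival gene Bcl2l1 rose by less (0.16 and 0.15). Pim1, a kinase gene induced by STAT5, was the most abundant of the list and fell from 258053 ± 4489.9 to 212808 ± 4043 normalized counts (SD, n = 3; log2 fold change −0.28, limma adjusted p = 4.17e-08). Pim2 and the perforin gene Prf1 fell as well (−0.15 and −0.18). Genes of this list therefore moved in both directions.

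Of 8 transcription factors known to act on genes of this receptor family 5 were called, all higher. With equal totals 7 were higher. Gfi1, which acts on Il7r in lymphocytes, had 2715, 3027 and 2772 normalized counts in WT and 3578, 3522 and 3388 in cKO (log2 fold change 0.30, limma adjusted p = 9.34e-06). Foxo1, which also acts on Il7r in lymphocytes, rose as well (0.24, limma adjusted p = 1.27e-05). So did Tbx21, which encodes T-bet, a factor that acts on Il2rb (0.23, limma adjusted p = 5.47e-07). The list does not separate activators from repressors, and the part of these factors in the receptor changes was not tested. Eomes, the related factor that also acts on Il2rb, had 41572 to 43755 normalized counts in WT and 42363 to 43090.2 in cKO and was not called (log2 fold change −0.010, limma adjusted p = 0.828), with a sign that turned with equal totals. Gabpa (log2 fold change 0.11, limma adjusted p = 0.0446) lost its call without WT sample 2 or 3 and without cKO sample 1 or 2, with adjusted p from 0.108 to 0.145.

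**Figure D5:**
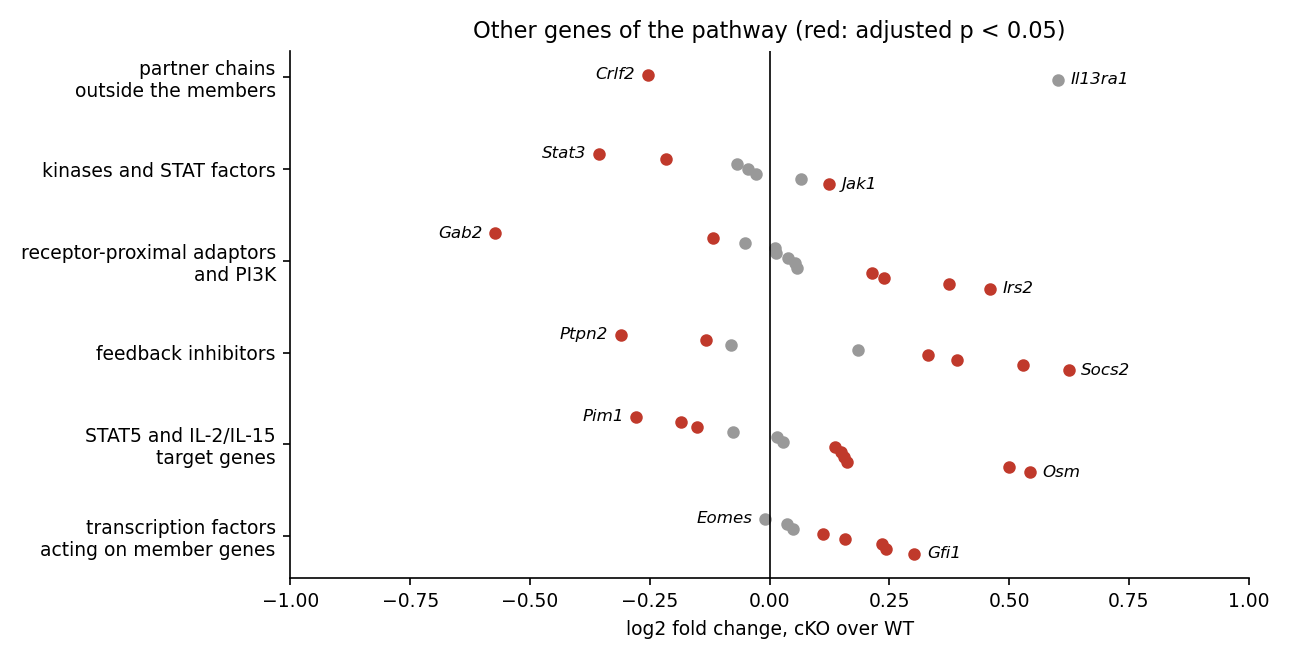
Log2 fold change (cKO over WT) of the other genes of the pathway, by role, 1 point a gene, in red where the limma adjusted p was under 0.05, with the lowest and highest gene of each role named. Red points lie on both sides of zero in the 4 middle lists and only right of it among transcription factors.

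Markers of other cells and of NK subsets were examined because these could carry or lack the same receptors. The summed level of the 6 B-cell markers ran from 1152 to 1189 normalized counts in WT and from 1496 to 1629.6 in cKO, with 5 of 6 called higher. That of the 6 T-cell markers ran from 1794 to 1987 and from 1395 to 1619, with 1 called, Cd3g, lower (means 802 and 478). Cd8a rose without overlap (means 45.2 and 71.3, limma adjusted p = 0.0514) and was called with equal totals (limma adjusted p = 0.0347). Of the 5 myeloid markers 3 were called higher and 1 lower, and their summed ranges overlapped (7493 to 8099 and 7504 to 8262). The ranges of the 4 erythroid markers also overlapped (778 to 826 and 660.3 to 798), and 0 of them were called by limma, 0 by limma-voom and 1 at an unadjusted p under 0.05. Of 3 dendritic cell markers 2 were higher and 1, Zbtb46, was lower. The part of these cells in the values of the 8 receptor genes was not tested.

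For the other innate lymphoid cells, Gata3 (3944 to 4258 normalized counts in WT, 4014 to 4125 in cKO) and Il1rl1 (21.8 to 26.2 and 38.4 to 42.7) were not called. Of 9 genes of immature NK cells 4 were called, against 36.6% of all genes, which were not matched for level. Ltb (log2 fold change 0.64) and Ctla2a (0.24) were higher and Kit (−0.53) and Cd7 (−0.29) lower. Of 10 genes of mature NK cells 6 were called, Cx3cr1 (0.54), S1pr5 (0.49) and Prdm1 (0.27) higher and Ly6c2 (−1.34), Klrg1 (−0.55) and Irf8 (−0.14) lower. With equal totals, 5 immature genes were higher and 2 lower (Gpr183, Emb and Xcl1 joined the higher ones), and 4 mature genes were higher and 3 lower. Both lists held genes called in either direction under both scalings, and the part of NK subsets in the rise of Il7r was not tested. Of the 9 NK markers 7 were called, Tbx21 higher and 6 lower, among them Ncr1 (log2 fold change −0.40), the locus that carries Cre in cKO.

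The genes whose log2 values followed each receptor gene most closely over the 6 samples are given as a description, since all genes share the libraries and the genotype difference, and 11753 genes were compared each time. Il2rg was most like Acd and Bag1 (Pearson r 0.998 and 0.997), Il2rb like Rbmxl1 and Fam60a (0.998 and 0.996), and Il7r like Cdc26 and Aldh18a1 (0.999 each). Il4ra was most like Urgcp and Dyrk2 (0.999 each), Il21r like Mir7-1 and BC024978 (0.998 each), and Il15 like Eny2 and Scimp (0.9996 and 0.997). Il2ra was most like Gm38329 and Catsperd (0.997 and 0.996), with the same low value in WT sample 2, and Il15ra like Gm7536 and Psmc1 (0.990 and 0.989).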

How the data were processed

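mRNA-seq libraries of FACS-sorted splenic NK cells from 3 WT and 3 cKO samples were analysed, grouped by the genotype in the labels. Paired-end reads were mapped to GRCm38, counted per gene and normalised by the authors. The submitters' processing notes name HISAT2 2.0.5, featureCounts 1.5.0-p3 and DESeq2 1.16.1, and other versions of HISAT2 and DESeq2 are named in the methods. The deposited sample columns are a signal, namely gene counts after division by a size factor of the sample. The authors' columns of log2 fold change with its standard error, of a test statistic as a score, and of p-value and adjusted p-value were deposited beside them and were not used. All values were whole multiples of 1 read (within 0.02 reads), from which the reads per sample were taken. They cover listed genes only, and the spread of genes with few reads holds counting error.

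Here log2(value + 1) was compared between genotypes with limma 3.58.1 in R 4.3.3 (variance trend, two-sided tests), and p-values were adjusted for the 14490 genes by the Benjamini-Hochberg method. The steps were checked on simulated data. For single values an exact permutation test used all 20 assignments of the samples. Confidence intervals are at the 95% level. Of the gene names 97.3% were found in GENCODE M21, which gave positions, exon lengths and transcripts, and promoters came from RefSeq. Genes named are the 8 receptor and ligand genes, list genes by lowest, highest or most abundant values, chromosomal neighbours, and the 2 genes most like each of the 8 in pattern. A few further list genes were named after their values were seen. The 8 genes and the lists were chosen with earlier results of these data known. Alternatives were another pseudocount, other filters, equal totals, limma-voom on the reads, a replicate block and leaving out each sample. One B-cell marker of the planned list is not reported here.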

Additional observations from a re-analysis of the deposited data

How the results depend on the processing

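All 8 genes kept their call and, apart from Il15ra, their direction in the 12 alternatives run, with 7 called, 2 higher and 5 lower in each. The log2 fold change of Il2ra lay between −0.91 and −0.63, of Il2rb between 0.12 and 0.19, of Il2rg between −0.26 and −0.19, of Il7r between 0.50 and 0.57, of Il21r between −0.52 and −0.42, of Il4ra between −0.56 and −0.50, and of Il15 between −0.43 and −0.30. That of Il15ra, not called in any, was 0.0054 with equal totals and 0.0023 without WT sample 2. The largest adjusted p among called genes, over all alternatives, was 0.0258 for Il15. The 6 chain ratios kept their direction in the 8 alternatives run for them, and their overlap was not computed again there. Since the groups were separate, leaving out a sample or using the block could not have turned the direction. Over all genes 5307 were called, 5246 to 5543 under the settings that kept all samples and 4417 to 4922 with a sample left out. Equal totals gave 3487 higher and 2016 lower (63.4% higher, against 48.5%). With the replicate number as a block 5543 genes were called and the 8 genes kept their calls. Same-numbered samples did not deviate together (correlations −0.040, 0.056 and 0.038), so the numbers were not taken as pairs. Pathway genes called ranged from 28 to 36. The count tests with edgeR and DESeq2 and limma-voom with TMM factors were not run, and limma-voom with the authors' size factors was chosen after seeing the data. With 3 samples per genotype the spread of a single gene is poorly known, and Il2ra, with as few as 199 reads in a sample, is the least precise of the 8.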
